A study of Mus musculus with 13 samples.

Results

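The 2962 binding sites described here are liver sites of the glucocorticoid receptor (GR) that were called in control mice given vehicle, missing from knockout mice given vehicle, and called again in the knockout after dexamethasone. They were chosen by a rule applied to the 4 deposited GR peak lists: a control vehicle peak with no dKO vehicle peak within 500 bp, centre to centre, that overlapped by at least 1 bp a peak of both the control dexamethasone and the dKO dexamethasone list. The control vehicle list holds 30011 peaks, of which 10143 (33.8%) lacked a dKO vehicle peak and 2962 (9.87%, 95% Clopper-Pearson interval 9.53 to 10.2%) met the whole rule. These counts, and every GR tag count below, come from the lists that chose the sites, so they describe the sites and nothing is read from them. Intervals cover counting error only, because each list was called on the pooled libraries of a group and holds no value for a single animal.

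The study mapped GR and the corepressor NCOR1 by ChIP-seq in livers of male mice. Control animals carried a construct labelled GFP, and dKO animals one labelled CRE, with the titles naming the latter dKO, a knockout that includes NCOR1. Either vehicle (saline) or dexamethasone, a synthetic glucocorticoid, was injected intraperitoneally at zeitgeber time 8, dexamethasone at 1 mg/kg, and livers were frozen 2 h later at zeitgeber time 10. All groups therefore shared the injection, the time of day and a construct. Each GR list pools 2 libraries, whereas the NCOR1 lists rest on 1 library each for control vehicle and dKO vehicle and on 2 for control dexamethasone, and a single control vehicle input served every list. The promoter and the route of the Cre construct are not given in the sources used here, and the NCOR1 antibody still gave 17282 peaks in the dKO vehicle library against 39458 in control vehicle. In whole liver, fewer cells with GR on a site and less GR on it in each cell cannot be told apart.

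GR is a nuclear receptor that enters the nucleus when bound by corticosterone or dexamethasone and binds inverted repeats of a hexamer, the glucocorticoid response element. In hepatocytes it is known for inducing genes of gluconeogenesis and amino acid breakdown and for damping inflammation. NCOR1 is a scaffold protein through which nuclear receptors recruit the deacetylase HDAC3. Many of those receptors recognise the half-site AGGTCA, and NCOR1 is known in liver for restraining lipid synthesis genes.

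The letters under these sites could be read only at promoters, where RefSeq windows (GRCm38.p6) of 250 bases before and 50 after a listed transcription start were available. Promoters of 99 genes overlapped 1 of the sites. The first 3 sequences below are the strongest of these by control vehicle GR tag count that hold the nuclear receptor half-site AGGTCA. They are shown because that half-site was found in a larger share of these promoters than in any other set counted. Each shows the 250 bases before the start, 5′ to 3′ on the gene's strand, with AGGTCA or its reverse complement TGACCT in capitals. They come from Pim3, a serine/threonine kinase gene (chr15:88861944-88862193, plus strand), Acadm, which encodes the medium-chain acyl-CoA dehydrogenase of fatty acid oxidation (chr3:153944644-153944893, minus strand), and Rtp3, a receptor transporter protein gene (chr9:110989714-110989963, minus strand).
Pim3: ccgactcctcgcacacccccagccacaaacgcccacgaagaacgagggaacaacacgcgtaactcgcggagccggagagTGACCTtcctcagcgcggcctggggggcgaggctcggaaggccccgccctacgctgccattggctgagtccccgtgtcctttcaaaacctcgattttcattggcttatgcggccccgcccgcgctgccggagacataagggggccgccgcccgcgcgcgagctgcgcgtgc
Acadm: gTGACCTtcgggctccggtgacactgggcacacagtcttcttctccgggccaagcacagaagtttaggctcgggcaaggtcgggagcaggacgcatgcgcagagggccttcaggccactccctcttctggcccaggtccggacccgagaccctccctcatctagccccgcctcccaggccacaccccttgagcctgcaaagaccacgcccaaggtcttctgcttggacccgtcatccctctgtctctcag
Rtp3: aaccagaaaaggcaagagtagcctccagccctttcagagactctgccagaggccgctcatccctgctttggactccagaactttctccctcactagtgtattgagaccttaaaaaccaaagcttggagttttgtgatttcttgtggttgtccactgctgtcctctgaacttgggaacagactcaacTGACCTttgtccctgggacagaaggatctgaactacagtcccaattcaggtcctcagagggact

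In Acadm and in Rtp3 the capitals lay 5 bp from the centre of the GR peak, and in Pim3 they lay 70 bp from it. The Acadm site (chr3:153944784-153944984) had a GR tag count of 22.6 in control vehicle, 23.1 in control dexamethasone and 16.3 in dKO dexamethasone. Its NCOR1 tag count was 71.5 in control vehicle and 49.8 in control dexamethasone, and no NCOR1 peak was called there in the dKO. All tag counts are the authors' values scaled to a library of 10 M tags, where M is mega.

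The other sequences are the 3 member promoters, of 99, with 15 letters that differ at no more than 2 of the 12 fixed positions from the palindrome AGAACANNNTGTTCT, the textbook glucocorticoid response element. These were picked after their values were seen, and the 15 letters are in capitals. They belong to Car14, a membrane carbonic anhydrase gene (chr3:95904686-95904935, minus strand, 1 mismatch), Fam107a (chr14:8309780-8310029, minus strand, 2 mismatches) and C1qb, a complement component gene of macrophages (chr4:136886201-136886450, minus strand, 2 mismatches).
Car14: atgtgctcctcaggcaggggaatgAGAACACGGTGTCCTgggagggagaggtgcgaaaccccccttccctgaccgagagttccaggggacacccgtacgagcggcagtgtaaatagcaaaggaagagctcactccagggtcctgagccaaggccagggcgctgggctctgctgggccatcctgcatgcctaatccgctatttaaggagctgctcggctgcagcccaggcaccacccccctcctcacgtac
Fam107a: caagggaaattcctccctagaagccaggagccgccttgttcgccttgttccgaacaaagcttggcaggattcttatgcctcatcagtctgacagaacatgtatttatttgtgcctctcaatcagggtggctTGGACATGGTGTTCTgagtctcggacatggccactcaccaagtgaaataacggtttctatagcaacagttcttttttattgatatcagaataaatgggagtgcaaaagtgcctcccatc
C1qb: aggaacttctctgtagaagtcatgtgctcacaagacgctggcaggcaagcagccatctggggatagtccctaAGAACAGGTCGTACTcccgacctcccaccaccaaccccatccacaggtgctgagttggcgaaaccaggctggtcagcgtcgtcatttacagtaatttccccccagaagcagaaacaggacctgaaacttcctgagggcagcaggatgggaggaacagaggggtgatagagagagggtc

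At Fam107a the GR tag count was 9.1 in control vehicle, 92.2 in control dexamethasone and 28.7 in dKO dexamethasone, and NCOR1 was called under dexamethasone alone, at 14.6. Car14 read 14.0, 31.8 and 15.4 in the same order, with no NCOR1 peak in any list. C1qb read 5.46, 8.49 and 4.86, close to the lowest values in these lists, and its only NCOR1 peak was in the dKO, at 7.73. At Pim3, by comparison, NCOR1 read 66.4 in control vehicle and 18.3 in the dKO and was not called under dexamethasone. Over all 99 promoters, 84 had an NCOR1 peak in control vehicle and 52 had one in the dKO. That dKO library had a peak at 11.5% of all 2962 sites and at 14.7% of all control vehicle GR peaks. Neither NCOR1 share was counted at promoters with other GR peaks, so 84 of 99 and 52 of 99 have no like share beside them. The 11.5% and 14.7% cover sites that mostly lay over 1000 bp from a listed transcription start.

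Over the 99 promoters, AGGTCA on either strand was found in 35 (35.4%, 26.0 to 45.6%). It was found in 23.5% (17.5 to 30.4%) of 179 promoters at control sites called in control dexamethasone but absent from both dKO lists, and in 13.7% (11.1 to 16.7%) of 612 promoters at sites called in all 4 GR lists. Among all 1582 promoters with a control vehicle GR peak the share was 15.9%, and among all 17492 genes with a listed promoter it was 14.7%. The GR half-site AGAACA showed no such spread, at 17.2% (10.3 to 26.1%) of the 99 promoters against 16.6% of all. The near-palindrome was in 3.03% (0.629 to 8.6%) of the 99, 3.43% of the 612 and 1.55% of all promoters, and no exact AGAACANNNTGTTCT occurred in the 99. AGAACA lies within the palindrome, so these counts overlap. A single window was used for each gene, but for some genes it differed between sets. The exact palindrome was in 2 of the 1582 promoters with a control vehicle peak and in 0 of all 17492. Shares over all 17492 genes are therefore not strictly like for like with the others. The 99 promoters lay at 92 distinct sites because some windows share a peak. NCOR1 control vehicle peaks overlapped 32 of the 35 member promoters with AGGTCA and 52 of the 64 without it. The dKO NCOR1 library also had a peak at 14 of those 35 and at 38 of those 64. A motif match is a description of the letters and shows no binding by any receptor.

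**Figure D1:**
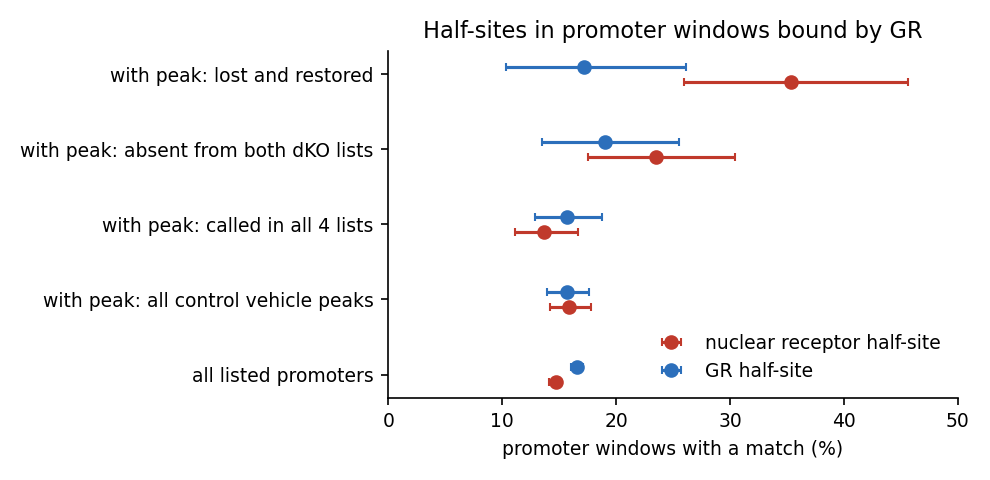
Share of promoter windows (horizontal axis, percent) with the nuclear receptor half-site AGGTCA (red) or the GR half-site AGAACA (blue) on either strand, for all listed promoters and for promoters that overlap each kind of GR site. Bars are 95% Clopper-Pearson intervals. The AGGTCA share of the lost and restored promoters, 35.4%, is the highest plotted, and the AGAACA shares lie between 15.7 and 19.0%. For some genes the window counted among all listed promoters differs from the one counted where a peak overlaps.

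The sites were of modest strength. Their median GR tag count was 10.2 in control vehicle (quartiles 7.64 and 14.4, highest 94.3), 16 in control dexamethasone (quartiles 10.8 and 24.1, highest 277.6) and 9.87 in dKO dexamethasone (quartiles 7.21 and 13.9, highest 143.7). In the dKO vehicle list they have no value, since a site under the calling limits is not listed there. The 16156 sites called in all 4 lists had medians of 17.3 in control vehicle and 15 in control dexamethasone, and of 15.1 and 11.9 in dKO vehicle and dKO dexamethasone. The 3426 sites absent from both dKO lists had medians of 8.92 in control vehicle and 10.5 in control dexamethasone. The authors required 4-fold over input and 4-fold over the surrounding 10 kb, and many of the sites lay near those limits. In control vehicle, 71.0% (69.3 to 72.6%) of the lost and restored sites were under 8-fold over the local 10 kb, against 22.4% of the sites called in all 4 lists, 80.1% of those absent from the dKO and 47.5% of all peaks. In dKO dexamethasone, 73.8% of the sites were under 8-fold over the local region.

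**Figure D2:**
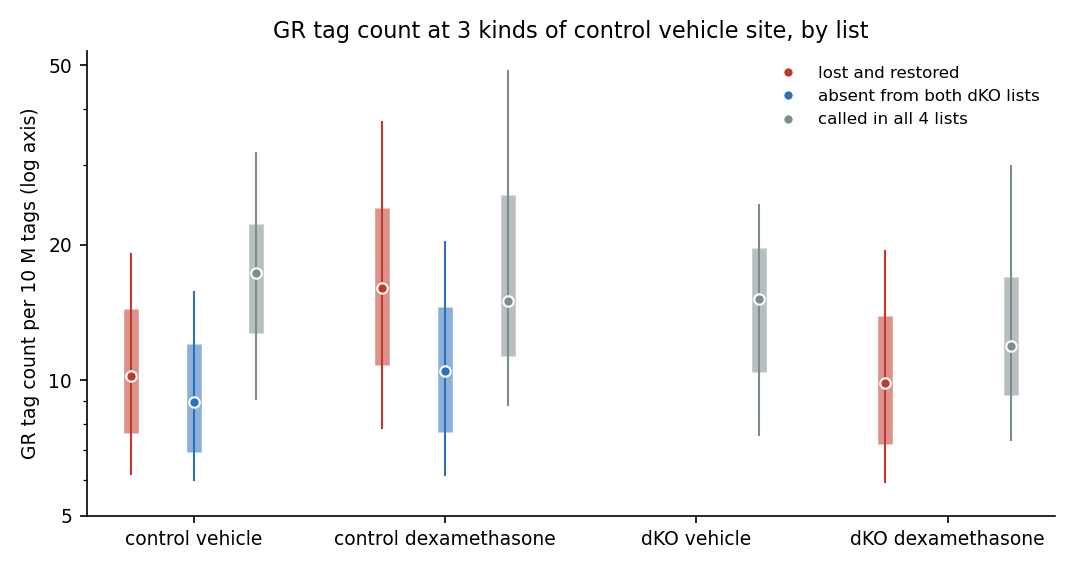
GR tag count per 10 M tags (log axis) in each of the 4 pooled GR lists, for the lost and restored sites (red), sites absent from both dKO lists (blue) and sites called in all 4 lists (grey). Points are medians, thick bars the middle 50% and thin lines the 10th to 90th percentile over sites, with no bar where the rule leaves no peak. The red median is 10.2 in control vehicle, 16 in control dexamethasone and 9.87 in dKO dexamethasone.

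Within the control list, dexamethasone went with a higher tag count at most of these sites. The ratio of control dexamethasone to control vehicle had a median of 1.47 and was above 1 at 84.4% of the 2962 sites. Its median was 1.14 at the sites absent from both dKO lists and 0.922 at those called in all 4. The rule asks for peaks in both dexamethasone lists and none in dKO vehicle, and the other sets had other requirements. The contrast between the sets may therefore be set by the rule and shows no difference in response. This contrast changed with strength in the control vehicle list. In the weakest of 5 equal classes the median was 1.61 at the lost and restored sites and 1.62 at those called in all 4, and in the next weakest 1.44 and 1.27. In the 3 stronger classes it was 1.34 to 1.42 against 0.767 to 0.933. The dKO dexamethasone tag count was below that of control dexamethasone at most sites, with a median ratio of 0.634 and 8.61% of sites above 1. That ratio was 0.758 at the sites called in all 4 lists, where 16.3% were above 1. Against control vehicle, the dKO dexamethasone tag count had a median ratio of 0.949 and was higher at 43.6% of the sites. The lists differ in the share of tags that fall in peaks, which was 5.0% (vehicle) and 7.23% (dexamethasone) in control and 3.4% and 4.1% in the dKO, at totals of 27.5 to 31.9 M tags. The part of these shares in the ratios was not tested.

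How often a lost site was called again varied with its strength in the control list. Among all 6467 lost sites that control dexamethasone also held, 45.8% (44.6 to 47.0%) were called in dKO dexamethasone, whereas 89.9% (89.4 to 90.3%) of the 18109 sites that were not lost were. With the control vehicle list split into 5 equal classes by tag count, from strongest to weakest, the share of lost sites called again was 69.4, 58.5, 48.7, 43.2 and 38.9%. For sites that were not lost it was 97.2, 94.3, 88.7, 79.2 and 68.6%. The number of lost and restored sites rose the other way along the same classes, from 236 and 387 through 637 to 844 and 858, so 29.0% of them came from the weakest class.

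The strongest of these sites in control vehicle lay inside Myom3, a gene for a muscle M-band protein (chr4:135788566-135788766, mm10). Its GR tag count was 94.3 in control vehicle, 101.6 in control dexamethasone and 22.4 in dKO dexamethasone, with no count listed in dKO vehicle. The next, 77.1 kb from Ptpn1, the phosphatase that acts on the insulin receptor, read 86.1, 114.4 and 65.2 in the same order (chr2:167853582-167853782). Its fold over the local 10 kb was 7.61 in control vehicle, although it stood 110.32-fold over input. Inside Scara5, a ferritin receptor gene, a site at chr14:65718268-65718468 read 74.4, 107.2 and 37.3, with no NCOR1 peak in any list. The site inside Nhej1, a DNA end-joining factor gene, was the only 1 of the 10 strongest with a lower tag count in control dexamethasone (53.3) than in control vehicle (65.3), and read 23.7 in dKO dexamethasone. Sites at or near Slc12a3, a sodium chloride cotransporter gene, Arrdc5 and Pole4, a DNA polymerase epsilon subunit gene, read 63.7, 58.6 and 56.8 in control vehicle and 46.1, 52.5 and 54.1 in dKO dexamethasone. A dKO vehicle peak lay 987 bp from the Ptpn1 site and 967 bp from the Pole4 site. Another lay 556 bp from the Bcl6 site, also among the 10 strongest. At a distance limit of 1000 bp these sites would not be in the set. Over all lost and restored sites, 4.49% lay within 1000 bp of such a peak. None of the 10 strongest sites reached its control dexamethasone count in the dKO, and all 10, picked on their control vehicle count, stayed below that count.

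A pick on a dexamethasone count favours a high ratio of dexamethasone to vehicle, which in control had a median of 1.47 over all 2962 sites. Of the 10 sites with the highest tag count in dKO dexamethasone, 8 read 3.492 to 24.11 times their control vehicle count in control dexamethasone. The other two lay near Ptpn1 and G6pc, at 1.329 and 1.643 times. Inside 1110059E24Rik (chr19:21598898-21599098) the tag count was 34.4 in control vehicle, 277.6 in control dexamethasone and 143.7 in dKO dexamethasone. The site inside Anapc16, a subunit gene of the anaphase-promoting complex (chr10:59997639-59997839), read 8.37, 201.8 and 112.2. Its control vehicle peak stood 4.02-fold over input, at the authors' limit of 4. A site 6.01 kb from Cldn14, a tight junction gene (chr16:93912916-93913116), read 9.83, 214.3 and 102.2. Rab7, Kctd13, Tshz2 and Nnmt, the last encoding nicotinamide N-methyltransferase, had nearest sites of 16.4, 31.9, 16.4 and 20.7 in control vehicle and 64.4, 64.1, 61.3 and 60.2 in dKO dexamethasone. These 7 sites had an NCOR1 peak in control dexamethasone (11.9 to 25.5 tags) and none in control vehicle or in the dKO, a pattern found at 14.0% of the 2962 sites when the dKO is left aside. That share covers all strengths, whereas the 7 sites read 77.1 to 277.6 for GR in control dexamethasone. Among the lost and restored sites in the strongest class of control dexamethasone tag count, the share was 24.6% (157 of 639). The site inside Ttc39c, which read 14.2, 69.9 and 72.6, had no NCOR1 peak in any list. In control vehicle, 3 of these 8 sites were already in the strongest class of all GR peaks, which began at 20.4.

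The sites at the low end of the genotype ratio were called in dKO dexamethasone with few tags. Inside Stk4, which encodes a kinase of the Hippo pathway, the tag count was 36.4 in control vehicle, 164.0 in control dexamethasone and 11.0 in dKO dexamethasone (chr2:164131496-164131696). Near Serpina1e, an alpha-1-antitrypsin gene, it was 49.9, 135.4 and 12.2. Inside Hsd17b2, a hydroxysteroid dehydrogenase gene, it was 13.7, 133.5 and 14.4. Sites near Mup7, a major urinary protein gene, and inside Cyp4f39 read 60.8 and 56.6 in control dexamethasone and 6.11 each in dKO dexamethasone. The dKO to control ratio under dexamethasone at these 5 was 0.067 to 0.108. Serpina1e and Mup7 belong to clusters of near-identical genes, so their tags may be shared between copies.

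At the high end, dKO dexamethasone exceeded control dexamethasone, all at low counts. The highest ratio, 2.604, was inside Cyp2a4, a cytochrome gene with near-identical relatives, where the tag count was 5.46 in control vehicle, 6.99 in control dexamethasone and 18.2 in dKO dexamethasone. Sites at or near Spon2, Smad6 and Id3, of which Smad6 and Id3 are targets of bone morphogenetic protein signalling, read 7.49, 7.16 and 10.7 in control dexamethasone and 16.8, 13 and 18.5 in dKO dexamethasone. Near Bmp6, the gene of such a ligand, the values were 10.4, 10.5 and 16.9 in control vehicle, control dexamethasone and dKO dexamethasone. The 10 highest ratios ran from 1.569 to 2.604, and no dKO dexamethasone tag count among them passed 18.5.

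The 5 sites just beyond the distance limit of 500 bp read 9.28 to 17.5 in control vehicle, 11.2 to 24.5 in control dexamethasone and 5.01 to 16.5 in dKO dexamethasone. The 5 just within it read 10.4 to 21.1, 22.6 to 72.4 and 5.64 to 46.5, with the highest dexamethasone counts near Orm3. Just beyond it, at 509 bp from a dKO vehicle peak, the Wrnip1 site read 14.2 in control vehicle, 24.5 in control dexamethasone and 16.5 in dKO dexamethasone. Just within it, at 493 bp, a peak near Slco1b2, a hepatic bile acid and drug uptake transporter gene, was left out although it read 15.1, 26.3 and 16.8, with a dKO vehicle peak of 14.3 beside it. In all, 121 peaks called in both dexamethasone lists did not overlap a dKO vehicle peak but lay within 500 bp of one, and were therefore not counted. The median distance from a lost and restored site to the nearest dKO vehicle peak was 14.7 kb (quartiles 6.19 and 36.1), and 133 of the 2962 lay within 1000 bp of one.

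**Figure D3:**
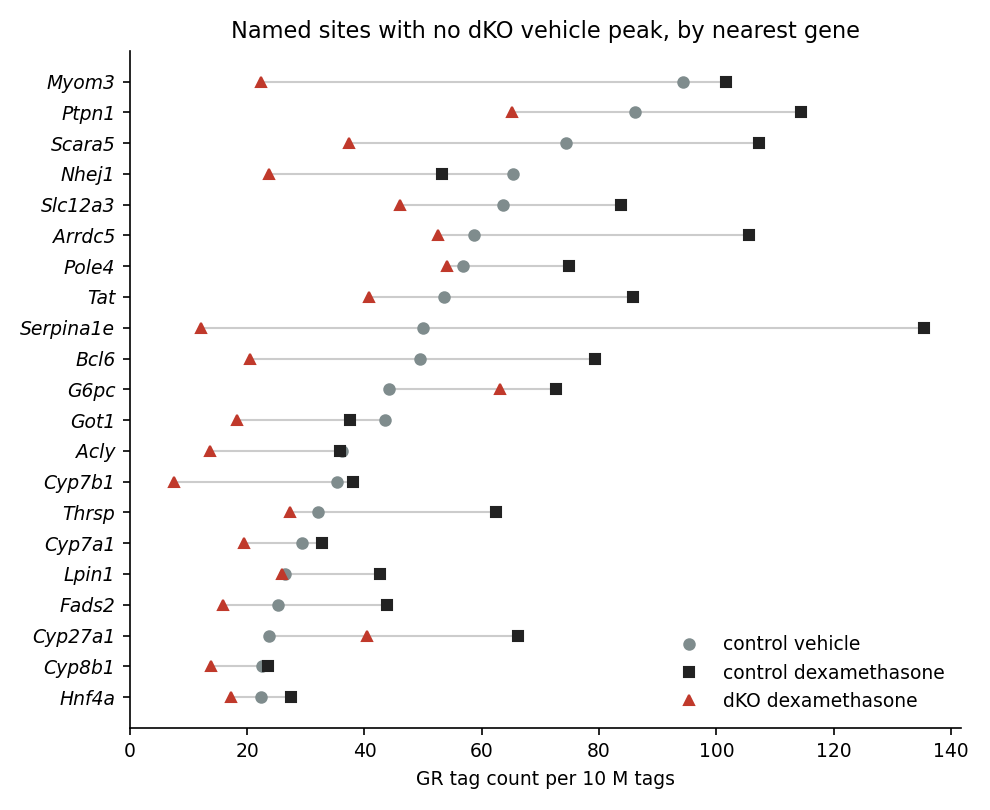
GR tag count per 10 M tags in control vehicle (grey circles), control dexamethasone (black squares) and dKO dexamethasone (red triangles) at the 10 strongest lost and restored sites and at the strongest sites near gluconeogenic, lipogenic and bile acid or cholesterol genes, ordered by control vehicle. Each row is 1 site named by its nearest gene and has 1 pooled value per list, hence no error bar. The triangle lies left of the square in every row, and the highest triangle is that of Ptpn1 at 65.2.

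NCOR1, which the rule did not use, was called at 66.6% (64.9 to 68.3%) of the 2962 sites in control vehicle, where 54.3% of all control vehicle GR peaks had an NCOR1 peak. In control dexamethasone the share was 74.3% (72.7 to 75.8%) against 52.7% of all. Sites called in all 4 GR lists had NCOR1 less often, at 43.8% (43.0 to 44.5%) in vehicle and 45.6% (44.8 to 46.4%) under dexamethasone. Sites absent from both dKO lists had 78.2% (76.7 to 79.5%) and 74.3% (72.8 to 75.7%). In the dKO vehicle NCOR1 library, 11.5% (10.4 to 12.8%) of the lost and restored sites still had a peak, against 14.7% of all control vehicle GR peaks.

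These orders changed with GR strength. In the strongest class of control vehicle GR tag count, NCOR1 control vehicle peaks were found at 72.9% (66.7 to 78.4%) of the lost and restored sites and 51.0% (49.6 to 52.4%) of those called in all 4 lists, and in the next class at 80.1% against 29.0%. In the weakest class the order was the other way, at 47.3% (43.9 to 50.7%) against 55.8% (52.5 to 59.0%). When classes were made from the control dexamethasone tag count instead, the reversal fell at the other end. In the strongest class 49.1% (45.2 to 53.1%) of the lost and restored sites had NCOR1 in control vehicle, against 75.8% (74.5 to 77.1%) of the sites called in all 4 lists. In the other 4 classes the shares were 70.7 to 73.5% against 20.0 to 59.8%. For NCOR1 in control dexamethasone, that strongest class gave 69.2% (65.4 to 72.7%) against 82.2% (81.0 to 83.4%). The weakest class of control vehicle tag count gave 64.6% (61.3 to 67.8%) against 65.8% (62.7 to 68.8%). In all other classes of either kind the lost and restored sites had the higher share under dexamethasone. The sites absent from both dKO lists had NCOR1 in vehicle more often than the lost and restored sites in all 5 classes of control vehicle tag count, from 94.1% in the strongest to 67.8% in the weakest.

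**Figure D4:**
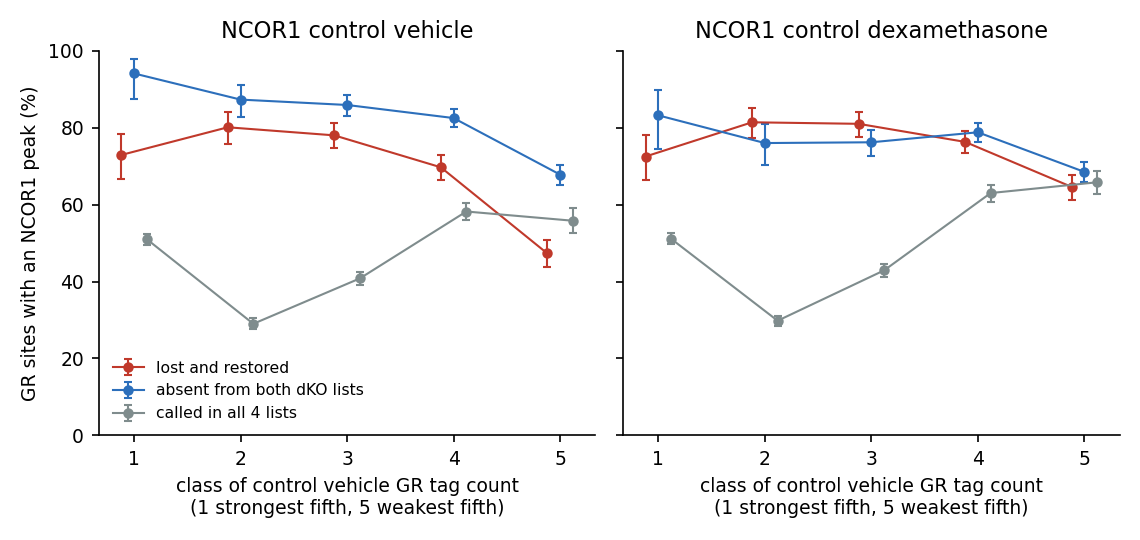
Share of GR sites that overlap an NCOR1 peak (vertical axis, percent) in control vehicle (left) and control dexamethasone (right), by class of control vehicle GR tag count (horizontal axis, 1 strongest, 5 weakest). Bars are 95% Clopper-Pearson intervals. In the left panel the red line of lost and restored sites lies above the grey line of sites called in all 4 lists in classes 1 to 4 and below it in class 5, at 47.3% against 55.8%.

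NCOR1 peaks called under dexamethasone but not in vehicle were found at 14.0% (12.7 to 15.3%) of the 2962 sites, against 6.02% of all control vehicle GR peaks, 7.62% of the sites absent from the dKO and 4.64% of those called in all 4 lists. The reverse pattern, vehicle without dexamethasone, held at 6.31% of the lost and restored sites, 11.5% of those absent from the dKO and 7.57% of all. Both NCOR1 lists had a peak at 60.3% of the 2962 sites, and 19.4% had none. In the weakest class of control vehicle GR tag count, 21.9% (19.2 to 24.8%) of the lost and restored sites and 14.5% (12.3 to 16.9%) of the sites called in all 4 lists had NCOR1 under dexamethasone alone. The NCOR1 libraries differed in depth, at 17.8 M tags in vehicle and 36.9 M under dexamethasone, and the part of depth in these shares was not tested. At the 1786 sites with both, the median NCOR1 tag count was 21.4 in vehicle and 17.3 under dexamethasone, with a median ratio of 0.82. That ratio was 0.751 at sites absent from the dKO and 0.793 at sites called in all 4 lists.

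The lost and restored sites were also set out by where NCOR1 was called. Their GR counts come from lists that the rule used, so the following medians describe these sites and show no difference in response. The 1973 sites with NCOR1 in vehicle had a median GR ratio of control dexamethasone to control vehicle of 1.32. The 414 sites with NCOR1 under dexamethasone alone had 2.2, and the 575 with none had 1.94. Their median GR tag counts in control vehicle were 11.1, 8.37 and 8.19, and in control dexamethasone 15.3, 20.6 and 17.3. Within each of the 5 classes of control vehicle tag count the sites with NCOR1 in vehicle had the lowest median ratio, 1.26 to 1.4, against 2.08 to 3.18 and 1.61 to 2.14. The dKO to control ratio under dexamethasone had a median of 0.656, 0.533 and 0.635 in the same 3 sets. GR and NCOR1 were measured against the same input library, and the part of that in these figures was not tested.

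**Figure D5:**
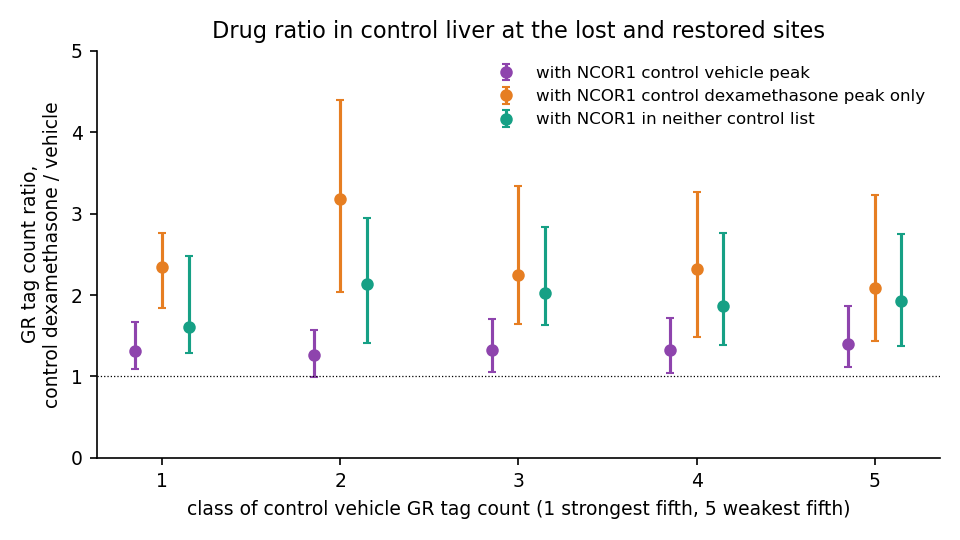
Ratio of the GR tag count in control dexamethasone to that in control vehicle (vertical axis) at the lost and restored sites, by class of control vehicle tag count and by where NCOR1 was called in control liver. Points are medians over sites and bars the middle 50% of sites, not errors over animals. The purple points, sites with NCOR1 in vehicle, lie at 1.26 to 1.4 in the 5 classes, below both other sets.

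Of the 6 sites with the strongest NCOR1 signals, 5 had GR tag counts of 14.4 to 18.2 in control vehicle, at or above the upper quartile of all 2962. The other was weaker. Inside Pdp2, which encodes a pyruvate dehydrogenase phosphatase, NCOR1 read 220.5 in control vehicle, 176.8 in control dexamethasone and 15.7 in dKO vehicle (chr8:104591934-104592134). GR there read 9.65, 15.5 and 8.46 in control vehicle, control dexamethasone and dKO dexamethasone, and a dKO vehicle GR peak lay 782 bp away. A site 44.1 kb from Ndrg1 had 203.4, 240.7 and 31.2 NCOR1 tags in the same order of NCOR1 lists. At 1.18 kb from Cyp26a1, the retinoic acid hydroxylase gene, NCOR1 read 123.2, 139.1 and 15.2 and GR 18.2, 30.5 and 20.8. Sites at or near Vps13d, Paqr9 and Lrp5 had 117.0 to 144.0 NCOR1 tags in control vehicle. All but the Lrp5 site kept a called NCOR1 peak in the dKO, at 12.6 to 31.2 tags.

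The share of sites at listed transcription starts was lower than in the other sets when all strengths were pooled, and the share inside genes was near that of all peaks. Of the 2962 sites, 55.3% (53.5 to 57.1%) lay inside a protein-coding gene, against 55.6% of all control vehicle peaks. A listed transcription start lay within 1000 bp of 7.04% (6.13 to 8.04%) of the 2868 sites on chromosomes with a start table, against 12.8% of all peaks, 11.8% of the sites absent from the dKO and 10.6% of those called in all 4 lists. In the strongest class the share was 7.02% (4.06 to 11.1%) against 12.1% (11.2 to 13%) at sites called in all 4 lists, and in the weakest class 6.15% (4.61 to 8.01%) against 6.57% (5.05 to 8.38%). In the class next to the weakest the order was the other way, at 8.9% (7.04 to 11.1%) against 8.1% (6.91 to 9.43%). Another control vehicle GR peak lay within 10 kb of 50.1% of the sites, compared with 42.3% of all peaks. Exons and introns were not separated, because the gene table holds gene bodies.

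The sites had 2170 nearest genes within 100 kb, and 1778 of these genes had a single site. Among the largest groups were the 6 sites each at Arid1b, a chromatin remodeller subunit gene, and Nfia, a transcription factor gene, which had 26 and 24 control vehicle GR peaks in all. Sox6, Gse1 and Pdzrn3 had 5 each. Cat, which encodes catalase, had 4 of its 5 control vehicle peaks among the lost and restored sites. The strongest of these, 26.1 kb from the gene (chr2:103511167-103511367), read 25.1 in control vehicle, 64.1 in control dexamethasone and 26.0 in dKO dexamethasone. The other 3 at Cat read 17.1, 18.2 and 12.9 in control vehicle and 13.2, 20.8 and 11.1 in dKO dexamethasone. Scara5, a shorter gene than most of these at 98.4 kb, held 4 of its 7 peaks in the set.

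Genes of lipid synthesis and of bile acid and cholesterol handling had the highest shares of their GR peaks in the set. At 17 lipogenic genes, 19 of 83 control vehicle peaks (22.9%, 14.4 to 33.4%) were lost and restored, at 12 genes. At bile acid and cholesterol genes it was 15 of 63 (23.8%, 14.0 to 36.2%), at 9 genes. The share over all control vehicle peaks was 9.87%, and the lists were chosen with results of these data known, so their shares are descriptions. Some genes stand in more than 1 list. The Acly site, inside the ATP citrate lyase gene (chr11:100490992-100491192), read 36.2 in control vehicle, 35.8 in control dexamethasone and 13.6 in dKO dexamethasone. Near Thrsp, a lipogenic gene induced by thyroid hormone, the values were 32.0, 62.4 and 27.3. Inside Lpin1, the phosphatidate phosphatase gene, they were 26.4, 42.6 and 26.0, and inside Fads2, a fatty acid desaturase gene, 25.3, 43.8 and 15.8. In dKO dexamethasone, Lpin1 and Thrsp thus read near their control vehicle counts, and Acly and Fads2 did not. NCOR1 was called in control vehicle at 13 of the 19 lipogenic sites, close to the 66.6% of all 2962. The median dKO to control ratio under dexamethasone was 0.595 at the lipogenic sites and 0.611 at the bile acid and cholesterol sites, beside 0.634 over all 2962.

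Of the bile acid enzymes, Cyp7a1, the rate-limiting enzyme of the classical pathway, had a site 2.98 kb away (chr4:6278516-6278716). It read 29.3 in control vehicle, 32.8 in control dexamethasone and 19.4 in dKO dexamethasone, with NCOR1 at 66.4 and 85.9 in control vehicle and dexamethasone. Cyp7b1, of the alternative pathway, read 35.3, 38.1 and 7.52 at a site without NCOR1 in any list. Cyp27a1, which starts the alternative pathway, read 23.7, 66.1 and 40.4. The sterol 12-alpha-hydroxylase gene Cyp8b1 read 22.6, 23.5 and 13.9. Cyp27a1 was the only 1 of these 4 sites above its control vehicle count in dKO dexamethasone.

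Fatty acid oxidation and ketogenesis genes had 8 of 45 peaks in the set (17.8%, 8.0 to 32.1%). Besides Acadm, they included Cpt1a, the gate of mitochondrial fatty acid uptake, whose site 2.03 kb from the gene read 18.9 in control vehicle, 22.0 in control dexamethasone and 19.4 in dKO dexamethasone. NCOR1 there read 77.6 in vehicle and 77.3 under dexamethasone. Cyp4a10, a target of PPAR alpha, read 18.0, 35.6 and 17.7 for GR in the same order. NCOR1 at Cyp4a10 read 39.1 in control vehicle, 75.2 in control dexamethasone and 10.6 in the dKO. Of the 8 sites, 6 had NCOR1 in control vehicle and 7 in control dexamethasone, beside 66.6 and 74.3% of all 2962.

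Gluconeogenic genes had a share near that of all peaks, 11 of 108 (10.2%, 5.2 to 17.5%). The Tat site, 3.61 kb from the tyrosine aminotransferase gene, a classical glucocorticoid target (chr8:109982368-109982568), read 53.5 in control vehicle, 85.8 in control dexamethasone and 40.7 in dKO dexamethasone. Near G6pc, the catalytic subunit gene of glucose-6-phosphatase (chr11:101360796-101360996), the counts were 44.2, 72.6 and 63.1, and no NCOR1 peak was called in any list. Near Got1, an aspartate aminotransferase gene, they were 43.5, 37.6 and 18.3. Inside Hnf4a they were 22.4, 27.5 and 17.2. G6pc alone of these 4 passed its control vehicle count in dKO dexamethasone. The G6pc site lay 678 bp from a dKO vehicle peak, so it would not be in the set at a distance limit of 1000 bp.

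Amino acid catabolism and urea cycle genes had 9 of 54 peaks in the set (16.7%, 7.92 to 29.3%), among them Gls2 (24.6, 20.8 and 12.8) and Cps1 (24.0, 35.8 and 17.4 in the same order). Glucocorticoid target genes had 9 of 113 (7.96%, 3.71 to 14.6%). The 4 strongest were Tat, Bcl6, a transcriptional repressor gene whose site lay 89.5 kb away (49.5, 79.3 and 20.4), Sesn1 (28.2, 76.4 and 36.7) and Ddit4 (21.7, 56.1 and 25.9), the latter pair encoding inhibitors of mTORC1 signalling. A dKO vehicle peak lay 556 bp from the Bcl6 site. The median dKO to control ratio under dexamethasone was 0.486 at the amino acid sites and 0.48 at the glucocorticoid target sites. Over all lost and restored sites this ratio fell with control vehicle strength, from 0.694 in the weakest class to 0.595 in the second strongest and 0.487 in the strongest. The rule asks for a called peak in both dexamethasone lists, so a low ratio could not appear where control dexamethasone was near the calling limits. The part of this in the order of the classes was not tested. The median control vehicle tag count was 22.2 at the amino acid sites and 17.3 at the glucocorticoid target sites, beside 10.2 over all 2962. Glycogen and insulin signalling genes had 5 of 93 (5.38%, 1.77 to 12.1%), 3 of them over 50 kb from the gene. Clock genes had 8 of 87 (9.2%), acute phase and inflammation genes 8 of 73 (11.0%), hepatocyte identity genes 12 of 111 (10.8%), and corepressor and nuclear receptor genes 13 of 111 (11.7%). Inside Cry2, a clock repressor gene, the counts were 18.0, 60.8 and 32.1 with no NCOR1 peak. Inside Thrb, the thyroid hormone receptor beta gene, they were 22.9, 30.0 and 16.9 with NCOR1 in both control lists. Near Orm1, an acute phase protein gene with close relatives, they were 19.3, 42.3 and 19.3.

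Markers of other liver cells had too few GR peaks for their shares to be told from the 9.87% of all control vehicle peaks. The 14 leukocyte markers had 7 control vehicle GR peaks, 0 of them in the set, with a 95% upper bound of 41.0%. C1qb, a macrophage gene outside that list that was met in the motif search, had a site at its promoter. It read 5.46 in control vehicle, close to the lowest values in the lists. The 14 neuronal genes had 19 peaks and likewise 0 in the set, with an upper bound of 17.6%. Endothelial, stellate and cholangiocyte markers had 4 of 36 (11.1%, 3.11 to 26.1%), among them Sox9 (15.3 in control vehicle) and Lyve1, Clec4g and Dcn, which read 5.64 to 8.01. Of 23 hepatocyte identity genes, 22 had a control vehicle GR peak, against 6 of the 14 leukocyte markers.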

How the data were processed

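ChIP-seq peak lists of GR and NCOR1 from mouse liver were analysed as deposited. The submitters' processing notes list Trim Galore 0.6.4, BWA 0.7.17, HOMER 4.11, bedtools 2.29.2 and mm10. Peaks of 200 bp were called with HOMER findPeaks against 1 input, per the file headers, at 4-fold over input, 4-fold over the local 10 kb and p 0.0001, with a tag threshold of 15 for GR. Labels tie all libraries of a group to 1 list, so replicates were pooled. The tag count is the authors' signal per 10 M tags. The fold over input and over the local region are ratios by the authors, per the file headers. The deposited score and p-value of each peak were not used here. Depth was 27.5 to 31.9 M tags for GR and 17.5 to 36.9 M for NCOR1, and a site missing from a list is one not called at that depth. GR libraries were not size selected and NCOR1 libraries were, per the labels.

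Peaks were matched with Python 3.11.15 and pandas 2.3.3, the selection was tested on simulated data, and overlaps were checked against bedtools 2.31.1 (0 of 180066 calls differed). Shares have 95% Clopper-Pearson intervals (scipy 1.17.1). No test was made, since no list has replicates. Genes came from RefSeq GRCm38.p6 gene bodies, the nearest protein-coding one within 100 kb, and starts from the RefSeq promoter table, which is not complete. No motif was sought outside promoters. The sites and gene lists were chosen with earlier results of these data known. Named sites are the 10 highest by control vehicle and by dKO dexamethasone tag count, the 10 highest and 5 lowest by dKO to control ratio, the 5 highest by NCOR1, up to 4 per gene list, the 8 genes with most sites, 5 on each side of the distance limit, and the 10 strongest at promoters; the text gives a part of them, and some are not reported here.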

Additional observations from a re-analysis of the deposited data

How the results depend on the processing

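No paired analysis was possible because replicates were pooled into 1 list per group before deposit. The number of lost and restored sites, 2962, was 3083 with a distance limit of 200 bp, 2829 with 1000 bp and 2669 with an overlap of 100 bp, or 10.3, 9.43 and 8.89% of control vehicle peaks. Requiring 8-fold over input in the control vehicle and both dexamethasone lists left 988 (4.8%), and 8-fold over the local 10 kb left 469 (2.97%). Cutting the lists to the length of the dKO vehicle list, the shortest, left 1626 (6.96%), and both planned ways of doing so coincide. The NCOR1 share in control vehicle, 66.6%, was 57.4% under each 8-fold limit, 72.4% at equal list lengths, 70.2% with centres within 500 bp, 54.7% with NCOR1 peaks of 8-fold over input and 57.5% without NCOR1 peaks shared with the dKO. The share under dexamethasone, 74.3%, was 67.5% at 8-fold over input for GR, 77.5% at equal lengths, 77.1% with centres within 500 bp, 54.3% with NCOR1 peaks of 8-fold and 64.3% without peaks shared with the dKO. The dKO NCOR1 share, 11.5%, was 10.3% at 100 bp overlap, 8.3% and 4.9% under the 8-fold limits over input and local, 9.9% at equal lengths, 13.4% with centres within 500 bp and 6.28% with NCOR1 peaks of 8-fold. The share inside genes was 45.6% at 8-fold over local and 57.9% at equal lengths. Leaving out the weakest 20% of control vehicle peaks, chosen after seeing the data, gave 2104 sites (8.76%), NCOR1 shares of 74.5 and 78.2% and 57.5% inside genes. With genes assigned within 50 kb, 84.8% of sites had a gene in reach instead of 90.6%, and glycogen and insulin signalling genes had 2 sites instead of 5. With all strengths pooled, NCOR1 shares in both control lists were higher at the lost and restored sites than at sites called in all 4 lists under every alternative of the GR rule that was run. Most sites lay near the calling limits, so a missing dKO vehicle peak says only that those limits were not passed. The dKO vehicle list came from 31.1 M tags and the control vehicle list from 27.5 M, and no replicate shows the spread between animals.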
